A study of Mus musculus with 10 samples.

Results

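Heparan sulfate and chondroitin sulfate genes were compared between ARG1+ and ARG1- myeloid cells of the inflamed spinal cord. The 37 genes were picked by gene symbol from the 55487 genes of the count table. They comprised 22 synthesis enzymes, 8 core proteins and 7 enzymes that break the chains down, and 33 of the 37 were expressed highly enough to be tested.

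Heparan sulfate and chondroitin sulfate are long, sulfated sugar chains attached to core proteins, which together are called proteoglycans. Both chains start on a shared linker of xylose, galactose and glucuronic acid, are extended by polymerases in the Golgi, and are then sulfated in patterns that set which chemokines, growth factors and matrix proteins they bind. On macrophages and monocytes such chains present chemokines and take part in adhesion and in the uptake of particles. Chains that reach the lysosome are taken apart from one end, sugar by sugar, by sulfatases and glycosidases whose inherited loss causes the mucopolysaccharidoses.

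The cells came from male C57BL/6 mice that carry the Arg1tm1Lky allele, in which the Arg1 promoter also drives a yellow fluorescent protein (YFP), and that were 8 to 12 weeks old per the methods. All of the mice had experimental autoimmune encephalomyelitis (EAE), a model of multiple sclerosis induced with a myelin peptide, and were taken at peak disease. Viable CD3-Ly6G-CD45+CX3CR1+ spinal cord cells were sorted, per mouse, into 200000 YFP+ (here ARG1+) and 100000 YFP- (here ARG1-) cells, and RNA from each of the 5 mice, m2, m6, m234, m235 and m236, gave 1 library per gate. The gate can hold monocyte-derived cells together with microglia and CNS-associated macrophages, and there was no healthy group, so both groups share the disease.

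Arg1 itself stood at 813 ± 174 CPM (counts scaled to a library of 1000000 counts; SD, n = 5) in ARG1+ and 18.4 ± 4.95 CPM in ARG1- libraries, a log2 fold change of 5.45. The libraries held 28212174 to 35455643 counts apart from the ARG1- library of m234 with 8396863. The genes of the antigens sorted against, Ly6g and 3 Cd3 genes, summed to at most 0.724 CPM in any library, while the wider list for T and NK cells reached 4.06 CPM and that for neutrophils ran from 13.7 to 33.1 CPM, mostly S100a8. Of the antigens sorted for, Cx3cr1 averaged 139 CPM in ARG1+ and 281 CPM in ARG1- libraries, and Ptprc, which encodes CD45, 622 and 726 CPM. Both genes were lower in ARG1+ in all 5 mice. Their edgeR FDRs were 0.153 and 0.069, or 9.24e-05 and 0.00192 with the mouse as a block. The ARG1- libraries had a wider range of summed microglial markers, 173 to 851 CPM over 7 genes against 135 to 273 CPM in ARG1+, with the highest sum in the shallow m234 library. Of these 7 genes 0 passed the edgeR test, with 4 at an unadjusted p below 0.05, 0 passed limma and 1 passed DESeq2, while 6 were lower in ARG1+ with the mouse as a block. Of the dendritic cell markers 6 of 7 tested were lower in ARG1+, as were 3 of 6 monocyte markers and 3 of 4 tested B and plasma cell markers, while 3 of 4 tested markers of CNS-associated macrophages were higher. The monocyte marker Hp averaged 354 CPM in ARG1+ and 311 CPM in ARG1- libraries (edgeR FDR 0.611). With the mouse as a block Hp was higher in ARG1+ (edgeR FDR 0.0217) and 4 monocyte markers were lower. Flt1 and Kdr of 3 tested endothelial markers were also lower, while Cdh5 averaged 0.978 CPM in ARG1+ and 0.964 CPM in ARG1- (edgeR FDR 0.887). Kit, from the mast cell and basophil list, was lower, but 5 of the 8 listed genes had 0 reads in every library. Of 2 tested neutrophil markers S100a9 was lower, at 0.242 against 2.44 CPM. S100a8 averaged 23.9 against 20.0 CPM (edgeR FDR 0.56), and with the mouse as a block it was higher (edgeR FDR 0.0154). Aldoc and Gja1 of 6 tested astrocyte markers were higher, and with the mouse as a block 2 astrocyte markers were higher and 1 was lower. Flt3, Zbtb46, Dpp4 and S100a9 were at most 0.742 CPM in ARG1+ and so entered the test through ARG1- libraries alone. In ARG1+ the B and plasma cell marker Jchain exceeded 1 CPM only in m236 (1.47 CPM), and Igkc only in m234 and m236 (1.90 and 4.56 CPM). These 2 genes thus also needed ARG1- libraries to enter the test. The part of these cell mixtures in the results below was not tested, and in such sorted pools fewer cells of a type and less RNA per cell cannot be told apart.

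Among the 33 tested genes, 11 were higher and 2 were lower in ARG1+ than in ARG1- libraries at a false discovery rate (FDR) below 0.05 by edgeR's quasi-likelihood test. This is 39.4% of the tested members, where 13% of all 13740 tested genes, 1782 genes, were called, 6.82% as higher and 6.15% as lower. The median log2 fold change, ARG1+ over ARG1-, was 0.16 over the members and -0.0022 over all tested genes. Breakdown enzymes had 4 of 7 members higher and a median of 0.49. Synthesis enzymes had 5 of 20 tested members higher, 2 lower and a median of 0.14, and core proteins had 2 of 6 higher and a median of 0.13. With each mouse as a block, since both libraries of a mouse come from the same animal, 18 members were higher and 4 lower, where 35.1% of all tested genes were called, 16.8% as higher and 18.3% as lower. The libraries of both groups did not overlap for 11 of the 33 tested members and for 11.3% of all tested genes, and the called members whose groups overlapped were Extl2 and Hgsnat. Each of the 33 exceeded 1 CPM in all 10 libraries. Of all members, 1 also changed by more than 1 on the log2 scale, as did 1.45% of all tested genes.

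**Figure D1:**
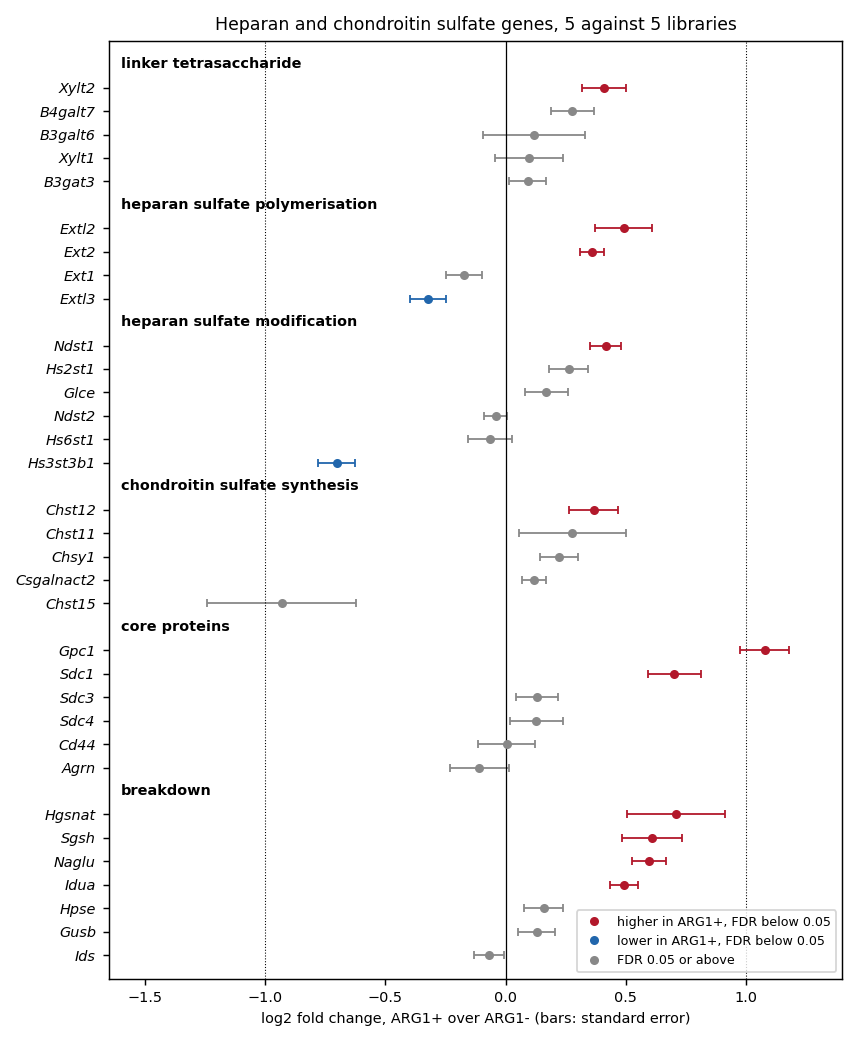
Log2 fold change of each tested gene, ARG1+ over ARG1-, with its standard error from edgeR, 5 libraries per group, ordered by role. Red and blue points passed the FDR limit of 0.05, grey points did not, and dotted lines mark a log2 change of 1. Gpc1 at 1.08 is the only point beyond the dotted lines, and 4 of the 7 breakdown enzymes lie between 0.49 and 0.71.

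RefSeq promoter windows of 300 bases around the start, on build GRCm38.p6, were matched for 29 of the 37 members. The E-box CACGTG, which reads the same on both strands and is the core of the motif that bHLH factors such as TFEB, TFE3, USF and MYC bind, was searched because lysosomal genes are known to carry it. It was found in 5 of the 29 members, 17.2%, against 8.09% of all 27025 genes with a promoter window. They were Ext2, Extl2, Sgsh and Naglu, which are among the 9 called members with a window, and Chsy1, which is among the 18 tested members with a window that were not called. Of the second list of other pathway genes described below, 4 of the 54 with a window held the E-box, 7.41%. The longer lysosomal form of the motif, with GT before and AC after the E-box, was found in 0 members and in 0.37% of all genes. The windows of the 4 called members are shown because their genes are those described below, with the E-box in capitals. A match is a description of the letters, and binding was not measured.
Ext2 promoter, chr2:93822519-93822818, minus strand: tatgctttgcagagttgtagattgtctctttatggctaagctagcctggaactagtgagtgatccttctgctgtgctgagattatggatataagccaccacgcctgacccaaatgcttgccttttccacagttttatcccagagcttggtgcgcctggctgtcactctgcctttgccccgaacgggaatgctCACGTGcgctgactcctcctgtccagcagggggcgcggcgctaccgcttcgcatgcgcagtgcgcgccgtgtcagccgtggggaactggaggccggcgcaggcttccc
Extl2 promoter, chr3:116008047-116008346, plus strand: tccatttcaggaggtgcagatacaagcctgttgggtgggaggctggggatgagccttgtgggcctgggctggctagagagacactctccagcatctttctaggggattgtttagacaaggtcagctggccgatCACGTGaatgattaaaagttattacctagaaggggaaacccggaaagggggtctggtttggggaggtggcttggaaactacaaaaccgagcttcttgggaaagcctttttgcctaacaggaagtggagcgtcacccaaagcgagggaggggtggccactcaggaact
Sgsh promoter, chr11:119355461-119355760, minus strand: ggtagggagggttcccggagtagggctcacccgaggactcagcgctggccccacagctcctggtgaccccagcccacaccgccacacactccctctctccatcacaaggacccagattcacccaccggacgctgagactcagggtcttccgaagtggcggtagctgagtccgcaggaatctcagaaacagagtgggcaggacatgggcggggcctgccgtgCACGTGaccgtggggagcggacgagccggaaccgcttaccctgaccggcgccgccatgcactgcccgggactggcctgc
Naglu promoter, chr11:101069844-101070143, plus strand: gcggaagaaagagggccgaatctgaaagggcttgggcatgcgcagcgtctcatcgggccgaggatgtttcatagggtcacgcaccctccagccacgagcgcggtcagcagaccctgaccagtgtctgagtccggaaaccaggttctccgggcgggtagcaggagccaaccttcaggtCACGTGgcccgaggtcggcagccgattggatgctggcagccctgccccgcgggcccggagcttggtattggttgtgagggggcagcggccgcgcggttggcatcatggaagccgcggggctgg
The E-box began at -58 relative to the start in Ext2, at -117 in this Extl2 promoter, at -29 in Sgsh and at -73 in Naglu. A second Extl2 window upstream held none.

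The linker enzymes build the sugar bridge from which both kinds of chain grow, and of these 5 genes only Xylt2 passed the test. Xylt2 (chr11:94663851-94677515, minus strand), a xylosyltransferase that adds the first sugar to the core protein, read 26.5, 28.2, 27.4, 24.3 and 25.7 CPM in the ARG1+ libraries of m2, m6, m234, m235 and m236. The ARG1- libraries, in the same order of mice, read 22.4, 21.2, 19.9, 15.6 and 20.3 CPM. The groups did not overlap. The log2 fold change was 0.41 (SE 0.09, edgeR FDR 0.0132), and without both libraries of m6 or of m236 the FDR was 0.062 or 0.0514. The other xylosyltransferase, Xylt1, averaged 71.5 ± 14.4 against 67.0 ± 9.47 CPM (SD, n = 5 each). B4galt7, which adds the galactose that follows xylose, had a log2 fold change of 0.28 with an edgeR FDR of 0.0625, which became 0.00819 with the mouse as a block, 0.0376 by DESeq2 and 0.0286 without the ARG1- library of m6. B3galt6 and B3gat3, which add the next galactose and the glucuronic acid, had log2 fold changes of 0.12 and 0.09 with edgeR FDRs of 0.747 and 0.46.

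The 4 heparan sulfate polymerisation genes moved in both directions, 2 higher and 1 lower. Ext2 (chr2:93661028-93822568, minus strand), which with Ext1 forms the polymerase that extends heparan sulfate, read 56.4, 54.0, 51.8, 54.7 and 58.5 CPM in ARG1+ and 42.8, 44.3, 40.1, 42.8 and 44.4 CPM in ARG1- libraries. The groups were apart, with a log2 fold change of 0.36 (SE 0.05, edgeR FDR 0.00129). Its partner Ext1 averaged 50.2 ± 5.11 and 56.7 ± 4.13 CPM, with a log2 fold change of -0.17 and an edgeR FDR of 0.152. In the fit with the mouse as a block the FDR of Ext1 was 0.0183, and all 5 mice had the lower value in ARG1+, so the genes for the polymerase's subunits had fold changes of opposite sign. Extl3 (chr14:65052060-65149855, minus strand), which starts the heparan sulfate chain on the linker, read 111, 135, 131, 118 and 128 CPM in ARG1+ and 157, 159, 177, 144 and 142 CPM in ARG1- libraries. It fell by 0.32 on the log2 scale (SE 0.07, edgeR FDR 0.0167), with the highest ARG1+ library below the lowest ARG1- library, and without both libraries of m2 or of m6 the FDR was 0.0855 or 0.0576. Extl2 (chr3:116007462-116029017, plus strand), which can cap the linker and stop its extension, read 11.7, 9.76, 7.87, 9.38 and 11 CPM in ARG1+ and 6.74, 6.35, 8.46, 6.96 and 7.20 CPM in ARG1- libraries. The groups overlapped through m234, the only mouse with the lower value in ARG1+, and the log2 fold change was 0.49 (SE 0.12, edgeR FDR 0.0196). The FDR of Extl2 lay between 0.0529 and 0.114 when the ARG1+ library of m2, the ARG1- library of m6, or the whole of mouse m2, m6 or m236 was left out.

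Of the 7 heparan sulfate modification enzymes, 6 were tested, 1 was higher and 1 lower. Ndst1 (chr18:60684494-60748650, minus strand), which removes acetyl groups and adds the N-sulfate that later steps depend on, read 177, 162, 169, 157 and 144 CPM in ARG1+ and 126, 131, 115, 114 and 119 CPM in ARG1- libraries. These groups did not overlap, with a log2 fold change of 0.42 (SE 0.06, edgeR FDR 0.00206). Ndst2, the other tested enzyme of this step, averaged 60.0 ± 2.02 and 61.8 ± 2.68 CPM with an edgeR FDR of 0.601. Hs3st3b1 (chr11:63885792-63922290, minus strand), which adds a rare sulfate group at the end of the modification path, read 7.53, 9.25, 8.54, 8.69 and 8.57 CPM in ARG1+ and 13, 14.1, 14.0, 14.7 and 13.5 CPM in ARG1- libraries. It fell by 0.70 on the log2 scale (SE 0.08, edgeR FDR 0.000314), was 1.63-fold lower, and its groups did not overlap, with the 37th lowest p of the 13740 tested genes. Its exons share 8.56% of their stretches of 50 bases with the paralog Hs3st3a1, which had 13 reads in all ARG1+ and 35 in all ARG1- libraries. Hs2st1, which sulfates uronic acids, averaged 36.0 ± 2.84 and 29.9 ± 3.31 CPM, and its edgeR FDR was 0.0551, 0.00378 with the mouse as a block, 0.0279 by DESeq2 and 0.0339 without the ARG1- library of m2. Glce, the epimerase that makes iduronic acid, and the sulfotransferase Hs6st1 had log2 fold changes of 0.17 and -0.06 with edgeR FDRs of 0.226 and 0.679. Hs3st1 had 1 read in all ARG1+ and 2 in all ARG1- libraries and was not tested.

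The chondroitin sulfate enzymes had 1 of 5 tested genes higher. Chst12 (chr5:140505550-140525724, plus strand), a chondroitin sulfotransferase, read 30.2, 27.1, 28.9, 31.0 and 27.7 CPM in ARG1+ and 20.9, 25.9, 16.6, 23.9 and 24.1 CPM in ARG1- libraries. Its groups were apart by a small margin, with a log2 fold change of 0.37 (SE 0.10, edgeR FDR 0.0339). The call of Chst12 was lost in the most omissions of the 13, since in 10 of 15 omissions the FDR lay between 0.0512 and 0.159, namely on leaving out any of the 5 ARG1+ libraries, the ARG1- library of m2, or the whole of mouse m2, m6, m235 or m236. Chst11, which acts at the same position of the sugar as Chst12, averaged 74.0 ± 22.8 and 61.2 ± 13.6 CPM. It ranged widely within a group, from 39.7 CPM in ARG1+ of m236 to 94.3 CPM in ARG1+ of m2, and its edgeR FDR was 0.432, or 0.00983 with the mouse as a block. Chsy1, a polymerase of chondroitin sulfate, averaged 60.8 ± 4.86 and 52.3 ± 5.37 CPM, with an edgeR FDR of 0.0791, 0.00197 with the block and 0.0388 without the ARG1- library of m234. Csgalnact2, which starts the chain, averaged 41.3 ± 1.68 and 38.0 ± 1.51 CPM with an edgeR FDR of 0.142, and its paralog Csgalnact1 had 0 reads in ARG1+ and 1 in ARG1- libraries.

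Chst15 (chr7:132235780-132317228, minus strand), which adds the second sulfate of the highly sulfated E form of chondroitin sulfate, had the most negative fold change of the members without passing the test. It read 4.92, 3.33, 5.96, 2.54 and 3.55 CPM in ARG1+ and 8.57, 6.66, 14.7, 4.39 and 5.93 CPM in ARG1- libraries. All 5 mice had the lower value in ARG1+, but the groups overlapped, and the shallow ARG1- library of m234 was the highest. The log2 fold change was -0.93 (SE 0.31, edgeR FDR 0.0692). The FDR was 0.000176 with the mouse as a block, 0.0138 by DESeq2, 0.0463 with no filter on low counts, 0.0447 without the ARG1+ library of m234, 0.0375 without the ARG1- library of m235 and 0.0417 without both libraries of m234. Its exons overlap Gm10584 on the opposite strand over 11.3% of their length, and that gene had 5 reads in all 10 libraries.

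**Figure D2:**
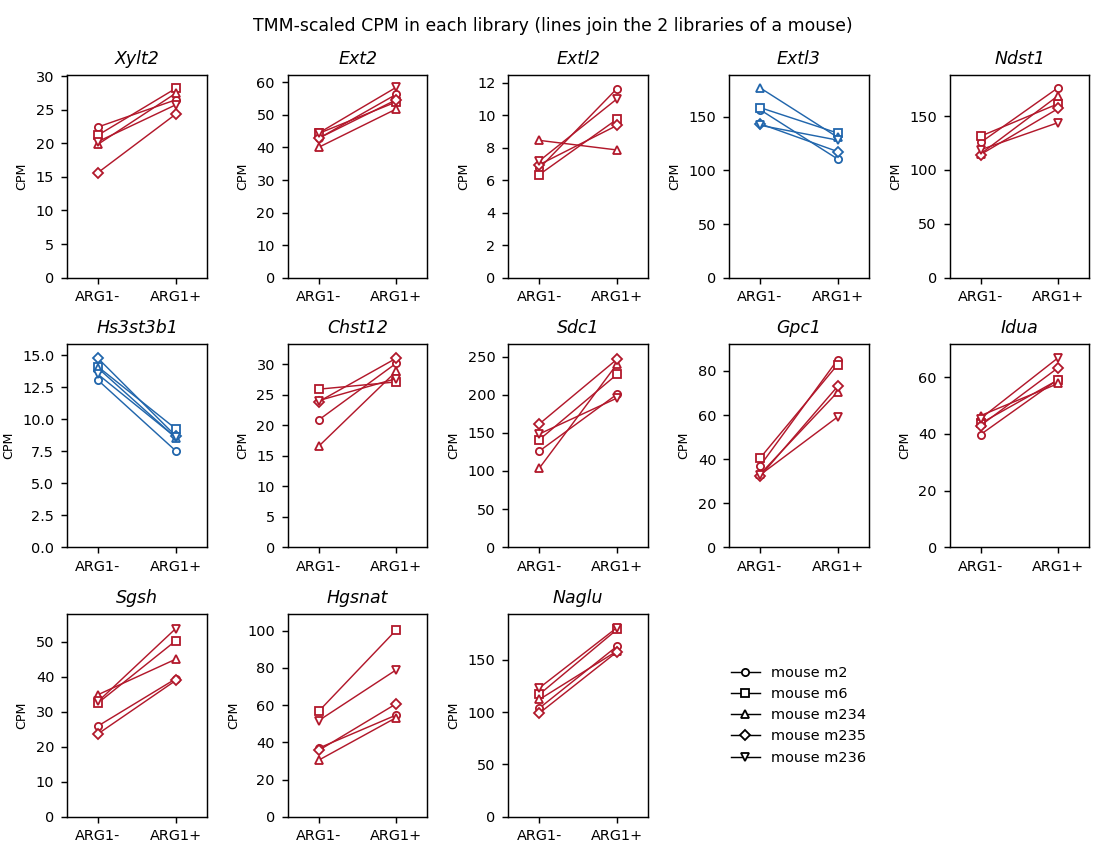
TMM-scaled CPM of the 13 called genes in each library, on axes that start at 0, where a line joins the ARG1- and ARG1+ libraries of a mouse and the symbol names the mouse. Lines are red for genes higher and blue for genes lower in ARG1+. All 5 lines of a gene point the same way except for Extl2, where m234 went from 8.46 CPM in ARG1- to 7.87 CPM in ARG1+.

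Among the core proteins, Gpc1 and Sdc1 rose and the other 4 tested genes did not pass the test. Gpc1 (chr1:92831645-92860779, plus strand) encodes glypican-1, a heparan sulfate proteoglycan tethered to the outer membrane by a lipid anchor. It read 85.2, 82.9, 70.5, 73.1 and 59.2 CPM in ARG1+ and 36.9, 40.4, 33.1, 32.1 and 32.8 CPM in ARG1- libraries. The lowest ARG1+ library was above the highest ARG1- library. The log2 fold change of 1.08 (SE 0.10, edgeR FDR 0.000162) is a 2.11-fold difference, with the 14th lowest p of the 13740 tested genes. Sdc1 (chr12:8771323-8793715, plus strand), which encodes syndecan-1, a transmembrane proteoglycan known from epithelia and plasma cells, read 201, 227, 240.2, 247 and 196 CPM in ARG1+ and 126, 141, 104, 162 and 149 CPM in ARG1- libraries. The groups did not overlap, and the log2 fold change was 0.70 (SE 0.11, edgeR FDR 0.00239). Markers of B and plasma cells were lower in ARG1+ for 3 of the 4 genes tested, of which Jchain and Igkc needed ARG1- libraries to enter the test. Summed over the 10 listed, ARG1+ libraries had 6.17 to 17.7 CPM and ARG1- libraries 32.6 to 68.8 CPM. The 3 lower genes Jchain, Igkc and Ighm averaged 0.486, 1.60 and 6.96 CPM in ARG1+ and 3.71, 14.2 and 26.4 CPM in ARG1- libraries, while Mzb1 and Tnfrsf17 averaged at most 0.0655 CPM in either group. Their part in the Sdc1 result was not tested.

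Syndecans are a family of membrane proteoglycans, and Sdc1 was the only member of the family that passed the test. Sdc3 averaged 576 ± 66.5 and 526 ± 43.0 CPM and Sdc4 averaged 234.6 ± 28.1 and 215 ± 32.1 CPM, with edgeR FDRs of 0.335 and 0.47. With the mouse as a block these FDRs were 0.0465 and 0.0233, and all 5 mice had the higher value in ARG1+ for both genes. Scaled to exon length, Sdc1 made up 25.0% ± 1.5 of the summed syndecan level in ARG1+ and 18.2% ± 2.09 in ARG1- libraries (SD, n = 5 each). The shares ran from 22.8% to 26.6% and from 14.6% to 20.0%, so they did not overlap, and Sdc3 was the largest share of the family on average in both groups. Sdc2 had 10 reads in all ARG1+ and 5 in all ARG1- libraries and was not tested. Cd44, a hyaluronan receptor that can carry chondroitin or heparan sulfate, was the most abundant member per length, at 187 and 186 CPM per kilobase. It averaged 1055 ± 145 and 1052 ± 160 CPM, with a log2 fold change of 0.005 whose sign turned with the scaling. The basement membrane proteoglycan Agrn averaged 53.0 ± 10.4 and 57.3 ± 6.54 CPM (edgeR FDR 0.593), and Hspg2, perlecan, had 63 and 108 reads in all and was not tested.

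The breakdown enzymes had 4 of 7 members higher, and these 4, Idua, Sgsh, Hgsnat and Naglu, all act in the stepwise removal of heparan sulfate sugars in the lysosome. Naglu (chr11:101070012-101077672, plus strand), the glycosidase that removes terminal N-acetylglucosamine, read 163, 179, 158, 157 and 181 CPM in ARG1+ and 104, 117, 112, 98.9 and 123 CPM in ARG1- libraries. Its log2 fold change was 0.60 (SE 0.07, edgeR FDR 0.000456). Idua (chr5:108660331-108684557, plus strand), which removes iduronic acid from heparan and dermatan sulfate, read 59.2, 59.1, 57.7, 63.3 and 66.9 CPM in ARG1+ and 39.7, 43.7, 46.4, 42.9 and 45.4 CPM in ARG1- libraries. For both genes the groups were apart, and the log2 fold change of Idua was 0.49 (SE 0.06, edgeR FDR 0.000492). Over 5.56% of its length Idua overlaps genes on the opposite strand, of which Dgkq averaged 23.5 and 23.8 CPM and Slc26a1 had 0 reads.

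Sgsh (chr11:119343425-119355536, minus strand), the sulfatase that removes the N-sulfate, read 39.4, 50.3, 45.0, 39.0 and 53.8 CPM in ARG1+ and 25.9, 32.5, 34.9, 23.7 and 32.9 CPM in ARG1- libraries. The groups were apart, and the log2 fold change was 0.61 (SE 0.12, edgeR FDR 0.00862). Its exons overlap Card14 on the opposite strand over 21.9% of their length, and Card14 had 1 read in all ARG1+ and 0 in all ARG1- libraries. The sources used here do not give whether strand was used in counting, and without it reads from a gene and its antisense partner cannot be told apart. Hgsnat (chr8:25944453-25976753, minus strand), which acetylates the glucosamine that Sgsh exposes and so makes the substrate of Naglu, read 54.7, 101, 53.4, 60.8 and 79.1 CPM in ARG1+ and 36.9, 56.7, 30.4, 35.7 and 51.7 CPM in ARG1- libraries. The groups overlapped, m6 and m236 had more Hgsnat than the other mice in both gates, and within each of the 5 mice the ARG1+ library was higher. The log2 fold change of 0.71 (SE 0.20) had an edgeR FDR of 0.0414, and one of 6.16e-06 with the mouse as a block. In 9 of 15 omissions the FDR of Hgsnat lay between 0.0576 and 0.105, namely on leaving out the ARG1+ library of m6 or of m236, the ARG1- library of m2, m234 or m235, or the whole of mouse m2, m6, m235 or m236.

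The other 3 breakdown enzymes did not pass the test. Gusb, the glucuronidase that acts on both kinds of chain and the most abundant breakdown member per length at 99.0 and 90.4 CPM per kilobase, averaged 373 ± 36.7 and 341 ± 24.5 CPM (SD, n = 5 each). Its edgeR FDR was 0.277, or 0.0427 with the mouse as a block. Ids, the sulfatase that acts before Idua, averaged 53.3 ± 3.31 and 56.0 ± 3.79 CPM with a log2 fold change of -0.07 and an edgeR FDR of 0.482. Hpse, heparanase, which cuts heparan sulfate chains internally and is also secreted, averaged 124 ± 15.2 and 111 ± 4.74 CPM with an edgeR FDR of 0.202. Consecutive enzymes of the heparan sulfate path thus had log2 fold changes of -0.07 for Ids, 0.49 for Idua, 0.61 for Sgsh, 0.71 for Hgsnat, 0.60 for Naglu and 0.13 for Gusb.

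The members were set beside a second list of 69 other genes of these pathways, of which 37 were tested, 8 higher and 2 lower, or 27% called against 13% of all tested genes. With the mouse as a block 14 were higher and 4 lower, where 35.1% of all tested genes were called. Of its 9 tested breakdown enzymes 5 were higher, with a median log2 fold change of 0.46 over the 9. Galns, Glb1 and Hexa, a sulfatase, a galactosidase and a hexosaminidase subunit that also serve keratan sulfate or gangliosides, had log2 fold changes of 0.46, 0.50 and 0.45 with edgeR FDRs of 0.00143, 0.00409 and 0.00402. The hyaluronidases Hyal1 and Hyal2 were higher at levels of at most 7.21 CPM on average, with edgeR FDRs of 0.017 and 0.0257. These rose above 0.05 in 2 and 8 of 15 omissions, up to 0.0806 without both m2 libraries for Hyal1 and 0.102 without them for Hyal2. Hyal1 shares 49.7% of its stretches of 50 bases with the overlapping genes Naa80 and Hyal3, so its count is uncertain.

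Arsb and Arsg, sulfatases of chondroitin and heparan sulfate, did not pass the test, with edgeR FDRs of 0.281 and 0.124. With the mouse as a block Arsg was higher in ARG1+ (log2 fold change 0.63, edgeR FDR 0.0167), in 4 of 5 mice. Among the ARG1- libraries both were highest in m234, at 77.3 and 16.0 CPM, the library with the highest sum of microglial markers. The part of the microglial share in these values was not tested. Exons of Arsb overlap Gm26527 and Gm47210 on the opposite strand over 59.7% of their length, and the part of antisense reads was not tested either.

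**Figure D3:**
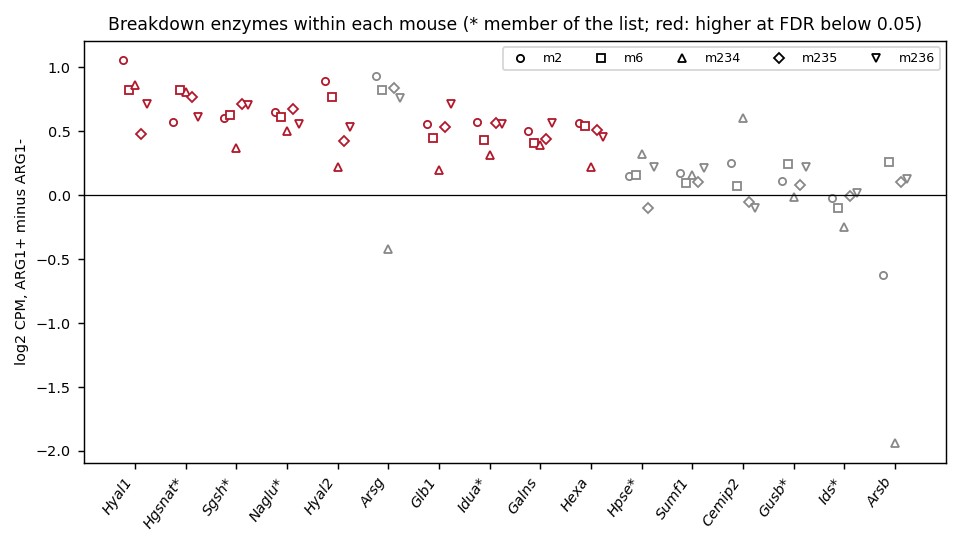
Log2 difference in CPM between the ARG1+ and ARG1- libraries of each mouse for the 7 breakdown members (starred) and the 9 other tested breakdown enzymes, ordered by fitted fold change. Symbols name the mouse, and red marks genes higher at an FDR below 0.05. All 9 red genes lie above 0 in all 5 mice, while m234 lies far below the other mice for Arsg and Arsb.

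The enzymes that supply sugar and sulfate donors had 2 of 14 tested genes higher and 0 lower. The 14.3% called in either direction was near the 13% of all tested genes, of which 6.82% were called as higher. Ugp2 and Ugdh, which act in sequence to make UDP-glucose and UDP-glucuronic acid, had log2 fold changes of 0.25 and 0.33 with edgeR FDRs of 0.0437 and 0.0307. Both calls were lost in many of the 15 omissions, 12 for Ugp2 and 9 for Ugdh, with FDRs up to 0.186 and 0.142 without both m2 libraries. Ugp2 also missed the limit with total counts (0.0665), with no filter on low counts (0.0609) and with edgeR's own filter (0.0501). Of 12 further heparan sulfate enzymes only Sulf2, a sulfatase that edits chains outside the cell, was expressed highly enough to be tested. Sulf2 averaged 101 ± 15.7 and 127 ± 15.9 CPM, with an edgeR FDR of 0.0766, 0.000389 with the mouse as a block and 0.0398 by DESeq2. Ust, a uronyl sulfotransferase of chondroitin and dermatan sulfate, was lower at 0.354 ± 0.175 against 1.12 ± 0.522 CPM (edgeR FDR 0.0273), and without the ARG1+ library of m235 or of m236 the FDR was 0.0512 or 0.0612. No ARG1+ library of Ust exceeded 0.55 CPM, so it entered the test only through the 3 ARG1- libraries above 1 CPM, and it did so in 9 of the 15 omissions.

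Of 19 further proteoglycan cores 5 were tested. Thbd, thrombomodulin, which can carry chondroitin sulfate, was higher at 84.9 ± 14.4 against 50.2 ± 13.9 CPM, with a log2 fold change of 0.74 (edgeR FDR 0.0204). Vcan, versican, a large chondroitin sulfate proteoglycan that monocytes are known to express, was lower at 26.1 ± 10.2 against 52.1 ± 12.2 CPM, a log2 fold change of -1.0 (edgeR FDR 0.0214). The FDR of Thbd was at most 0.0889 and that of Vcan at most 0.113 in the omissions, above 0.05 in 3 and 5 of the 15. For Thbd these were the ARG1- library of m2 and both libraries of m2 or m6. For Vcan they were the ARG1+ libraries of m6 and m236, the ARG1- library of m2, and mice m2 and m6 as a whole. Srgn, serglycin, the granule proteoglycan of blood cells, averaged 869 ± 92.3 and 1000.5 ± 93.2 CPM, with an edgeR FDR of 0.144, or 0.00608 with the mouse as a block.

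Compared per length, the members spanned a wide range. In ARG1+ libraries Cd44, Sdc3, Gusb, Sdc4, Sdc1 and Naglu stood at 187, 116, 99.0, 95.4, 70.3 and 65.5 CPM per kilobase of exon, and Chst15 at 0.778. Among the synthesis enzymes B3gat3, Extl3 and Ndst1 were the highest in ARG1+ at 22.2, 20.7 and 20.1 CPM per kilobase, with ranges over the libraries that overlapped. In ARG1- libraries Extl3 was the highest of them at 25.9 CPM per kilobase. Gpc1 stood at 17.8 and 8.4 CPM per kilobase, so its mean was below those of the 3 expressed syndecans in both groups.

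**Figure D4:**
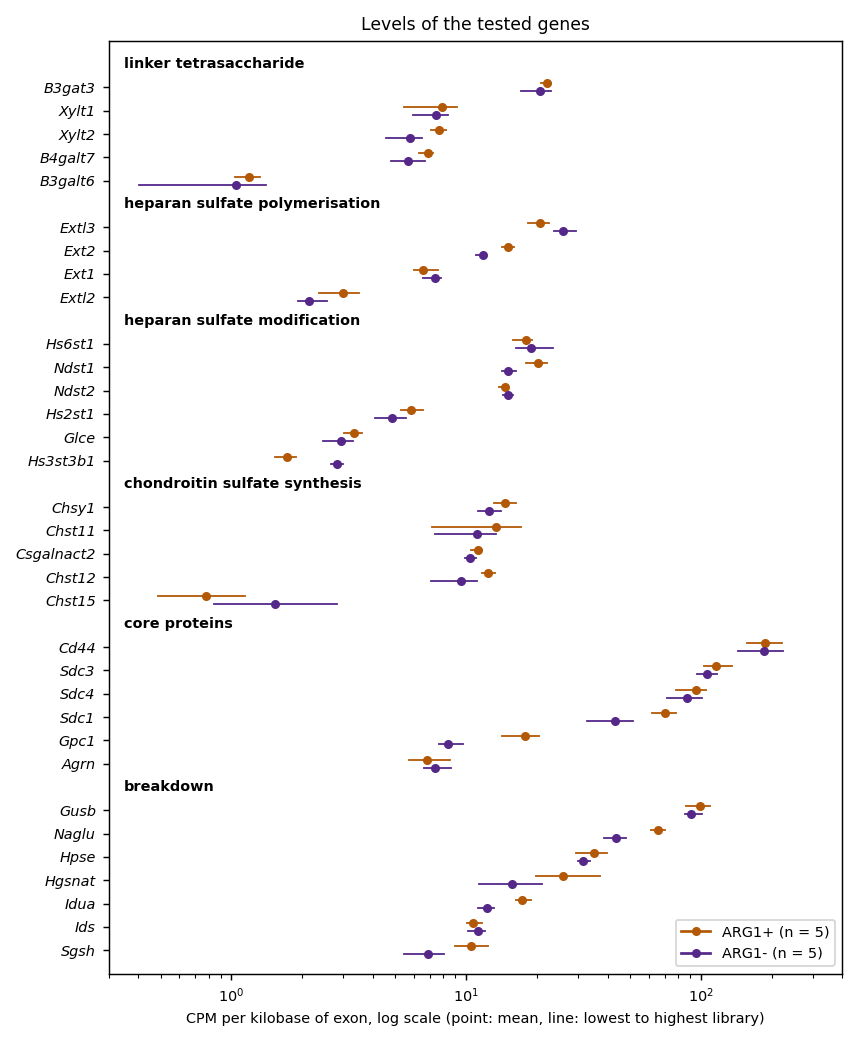
Mean level of each tested gene in CPM per kilobase of exon on a log axis, with a line from the lowest to the highest of the 5 libraries, for ARG1+ (orange) and ARG1- (purple). Core proteins and breakdown enzymes include the most abundant members, Cd44 at 187 and 186 CPM per kilobase, and B3galt6 and Chst15 have mean levels below 2 in both groups.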

How the data were processed

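The counts were made by the authors from 50-base single-end reads of directional libraries, aligned with STAR (2.7.10b in the submitters' processing notes) to GRCm38 and counted with summarizeOverlaps in Union mode, and were deposited as whole numbers per gene without normalization. Members, lists and tests were chosen with earlier results of these data known, and every member is named. Some other genes of these pathways are not reported here.

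A gene entered the test when its CPM exceeded 1 in 3 or more libraries. The test was the quasi-likelihood test of edgeR 4.0.16 (TMM, R 4.3.3), without a block, since the methods name none, with Benjamini-Hochberg adjustment, and the filter is that of the methods, whose own test was limma-trend. CPM values are TMM-scaled. The 2 libraries of a mouse deviated together from their group means (r 0.367 to 0.668, against at most 0.0695 between mice), and the pairing comes from the labels. Alternatives were the mouse as a block, limma 3.58.1, DESeq2 1.42.0, other scalings and filters, and omissions of each library or mouse. In simulated data of 13616 genes edgeR recovered all 100 genes changed by 1 and all 100 changed by 1.5 on the log2 scale, with 8 false calls. Only better expressed genes were changed and no mouse effect was simulated. Changes below 1, which most called members had, were not covered. Exon lengths and shared sequence came from GENCODE M21. Counts of reads cover counting error only, and 1 CPM was 8.4 to 35.5 counts in the libraries.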

Additional observations from a re-analysis of the deposited data

Results flagged for a closer look

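Among 90 sets of 5 libraries examined, 2 held a library far from the other 4, and chance alone gives about 1 in 20 such sets. B3galt6, the second galactosyltransferase of the linker, read 1.29 CPM in the ARG1- library of m234, where the next lowest ARG1- library read 3.56 CPM, and m234 is the ARG1- library with the fewest counts. Hyal1, a hyaluronidase, read 6.21 CPM in the ARG1+ library of m6, where the next highest read 4.35 CPM. The cause was not tested for either gene.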

How the results depend on the processing

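The counts of members higher (11) and lower (2) became 18 and 4 with the mouse as a replicate block, which kept all 13 calls, and over the omissions of a library or mouse ran from 7 to 11 and from 1 to 3. The lowest count of higher members came without both libraries of m6 or of m236, and that of lower members without both libraries of m2 or m6. Without the shallow ARG1- library of m234 the counts were again 11 and 2, but Hgsnat lost its call (edgeR FDR 0.0692) and Chsy1 gained one (edgeR FDR 0.0388). Lower members past the log2 limit of 1, of which edgeR, limma and DESeq2 found 0 (the most negative value was -0.93, so 0 also at an unadjusted p), ranged from 0 to 1 over the omissions, Chst15 being the gene without the ARG1+ library of m234 or the ARG1- library of m235. Of the other pathway genes, 8 higher and 2 lower became 14 and 4 with the block, and 4 lower without a filter, and the omissions gave 3 to 9 and 0 to 2. The sign reversed for Cd44 with total counts (-0.035) and in 6 omissions (range -0.072 to 0.083 over all 15), and, without the ARG1- library of m234, for B3galt6 (-0.024, range -0.024 to 0.25) and Hs6st1 (0.023, range -0.11 to 0.023). Over 22 alternatives for each of 33 members, 670 of 726 values kept sign and side of the threshold, 28 lost the call and 19 gained it. The 8 members past the threshold in all 22 were Ext2, Ndst1, Hs3st3b1, Sdc1, Gpc1, Idua, Sgsh and Naglu. Genes under a few CPM rest on few reads in the m234 ARG1- library.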
